A study of Mus musculus with 16 samples.

Results

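A cell that is about to divide copies its DNA once, in S phase, with a machine whose parts are made to a large extent when they are needed. Origins are first licensed, when the origin recognition complex, Cdc6 and Cdt1 load the MCM2-7 helicase. The helicase is then activated by Cdc45, GINS and Mcm10, primase and the polymerases copy both strands behind it, and nucleotide enzymes, chromatin assembly factors and checkpoint proteins serve the fork. Transcription factors of the E2F family drive many of these genes at the passage from G1 into S phase. Smooth muscle cells of an adult artery are mostly out of the cycle and enter it after injury or under growth stimuli.

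The 43 genes described here were chosen by name as parts of this machine. All 43 symbols were found, each once, among the 54532 genes of the expression table. RNA was sequenced from aortas freed of adventitia, the outer layer of the wall, of male Apoe-/- mice on the C57BL/6j strain, aged 8 to 12 weeks. The 8 Ang II libraries came from mice infused with angiotensin II, a hormone that constricts arteries, at 1000 ng per kg per min by osmotic pump for 7 days. The 8 saline libraries came from mice infused with 0.9% sodium chloride for the same time. Both groups carry the Apoe-/- genotype by their labels, while the library names begin with WT. Apoe had a lowest, median and highest level of 6.815, 12.15 and 17.2 FPKM with Ang II and of 14.7, 26.1 and 110.1 FPKM with saline, and the part of the gene that the allele lacks is not given in the sources used here, so this level does not check the genotype. The labels list 16 samples without saying which mouse or pool of mice gave each, so p-values measure only the spread between these 16 samples, which may be technical.

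The reads behind the FPKM numbered 15779125 to 19988730 in the Ang II libraries and 14606864 to 17590088 in the saline libraries, so that 1 read in a transcript of 1 kilobase was worth 0.05 to 0.0685 FPKM. Smooth muscle markers were abundant in every library, with a summed level over 7 genes of 6231 to 10603 FPKM with Ang II and 8795 to 15104 FPKM with saline. Of the 7, 3 passed the test as lower with Ang II, where 24.9% of all genes tested were lower. In whole tissue, fewer cells that replicate and less RNA of these genes per cell cannot be told apart, and the same holds for more cells and more RNA.

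Part of what the members share can be read in their promoters. The E2F motif was searched on both strands as the letters TTTCCCGC, TTTCGCGC, TTTGCCGC or TTTGGCGC in the window from 250 bases before to 50 bases after the annotated start (RefSeq, GRCm38.p6, first listed start). Of 35 members with a promoter in that table, 13 held the motif, or 37.1%, against 2.32% of all 27025 genes with a promoter and 4.0% of the 10559 of them that were tested here. The CCAAT box, which the factor NF-Y binds, stood in 23 of the 35, or 65.7%, against 37.9% of all promoters. The 8 stretches below are the members whose E2F letters all end by base 20 after the start. They are shown because they include genes that rose and genes that did not pass, and run up to 30 bases past the matches on each side, with the E2F letters of either strand in capitals. Mcm5, Mcm6, Rfc3, Dtl and Cdc6 rose with Ang II, while Orc1, Gins3 and Pola1 did not pass the test.
Mcm5 (chr8:75109326-75109397, plus strand): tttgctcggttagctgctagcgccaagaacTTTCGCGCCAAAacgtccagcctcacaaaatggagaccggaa
Mcm6 (chr1:128359715-128359845, minus strand): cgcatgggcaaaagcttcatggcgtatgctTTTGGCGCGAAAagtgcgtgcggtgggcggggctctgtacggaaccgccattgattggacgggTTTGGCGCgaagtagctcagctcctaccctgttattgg
Rfc3 (chr5:151651189-151651248, minus strand): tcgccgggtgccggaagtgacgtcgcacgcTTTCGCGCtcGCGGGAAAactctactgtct
Dtl (chr1:191575525-191575582, minus strand): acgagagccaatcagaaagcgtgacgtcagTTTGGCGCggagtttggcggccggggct
Cdc6 (chr11:98907983-98908050, plus strand): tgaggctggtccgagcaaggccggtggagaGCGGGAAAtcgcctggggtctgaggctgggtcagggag
Orc1 (chr4:108579397-108579464, plus strand): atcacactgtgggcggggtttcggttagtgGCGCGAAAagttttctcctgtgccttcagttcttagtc
Gins3 (chr8:95633488-95633555, plus strand): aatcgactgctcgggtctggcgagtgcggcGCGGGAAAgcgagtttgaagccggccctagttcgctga
Pola1 (chrX:93632256-93632323, minus strand): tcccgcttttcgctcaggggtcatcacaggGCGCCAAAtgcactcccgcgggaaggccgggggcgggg
In Mcm5 and Mcm6 a forward and a reverse match overlap, and Mcm6 holds a further match nearer to its start. The E2F letters stood in 7 of 18 promoters of members that rose (38.9%) and in 6 of 13 of members that were tested and did not pass (46.2%). They stood in none of the 3 promoters of members that fell.

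**Figure D1:**
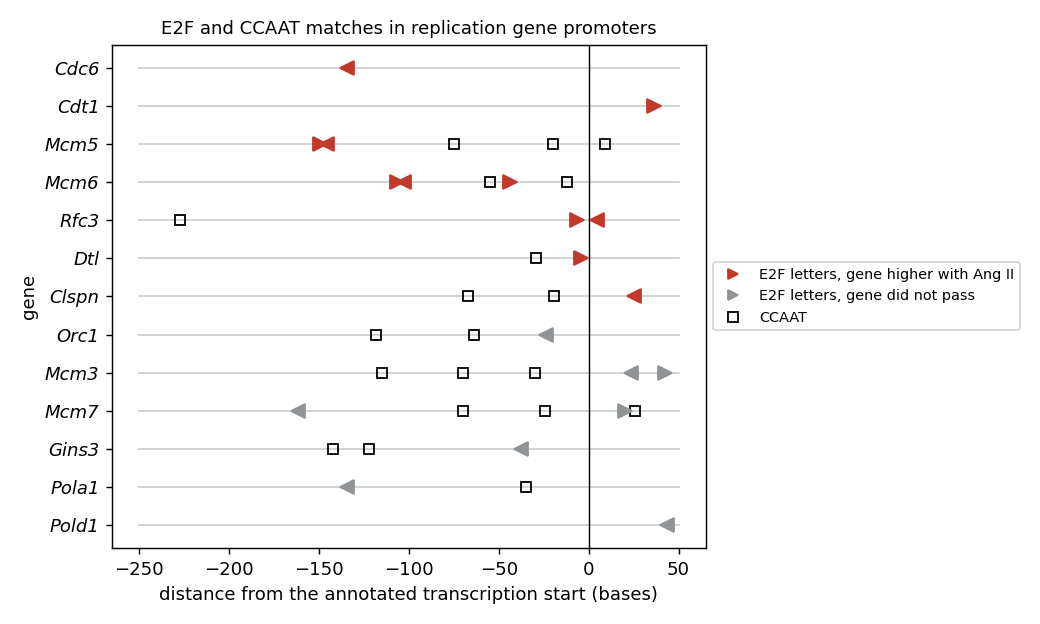
Position of E2F letters (filled triangles, pointing right on the gene's strand and left on the opposite strand) and of CCAAT (open squares) in the 13 member promoters that hold E2F letters, by distance in bases from the annotated start. Red triangles are genes that rose with Ang II and grey ones genes that did not pass; in both kinds matches lie before and after the start.

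With Ang II, 19 of the 42 members that could be tested were higher and 3 were lower, while 20 did not pass. The test was limma on log2(FPKM + 1), fitted to the 15007 genes with a mean of at least 0.5 FPKM and adjusted over all of them by Benjamini-Hochberg, with a threshold of 0.05. Among all genes tested 9.54% were called higher and 24.9% lower. The median log2 fold change of the 42 members was 0.40, and that of all genes tested was -0.12. The largest rises were in checkpoint, chromatin and nucleotide genes, and only 3 members, Clspn, Uhrf1 and Rrm2, were called higher with at least a 2-fold change on this scale, where 2.53% of all genes were. For 10 members (Mcm2, Mcm5, Mcm10, Rrm2, Uhrf1, Chaf1a, Brca1, Dtl, Clspn and Chek1) the lowest Ang II value exceeded the highest saline value, against 2.74% of all genes. The reverse held for no member and for 5.62% of all genes. The filter uses the mean over both groups, so Mcm10, Chaf1a, Brca1, Dtl and Clspn, whose saline means were under 0.5 FPKM, passed it through their Ang II level.

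The deposited FPKM set the median gene 0.12 lower with Ang II, and scaling the libraries by their median ratio moved that median to -0.003. After that scaling 24 members were higher and none lower, where 14.9% and 14.1% of all genes were. Gmnn, Mcm3, Gins2, Prim2 and Pcna passed in addition. Prim1, Rpa1 and Rpa2 then no longer passed as lower (adjusted p = 0.0558, 0.0620 and 0.150 with limma after scaling). Their log2 fold changes stayed negative, at -0.44, -0.27 and -0.25, and the calls were likewise lost after quantile normalization.

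**Figure D2:**
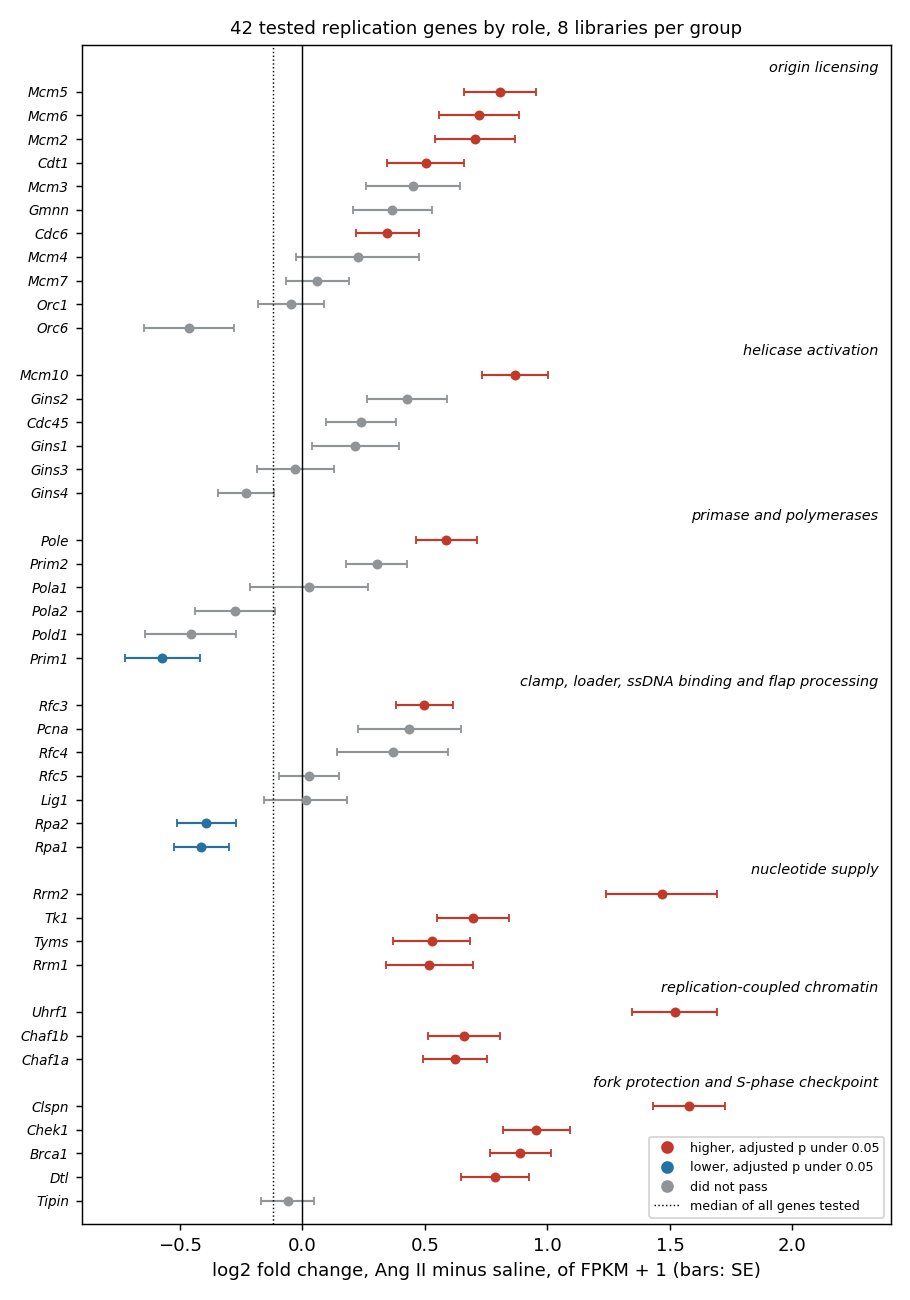
Log2 fold change of FPKM + 1 with Ang II relative to saline (x axis, points with SE bars) of the 42 tested members, grouped by role. Red points passed as higher, blue as lower and grey did not pass. Nucleotide and chromatin genes all lie right of 0, primase and polymerase genes lie on both sides, and Rpa1 and Rpa2 lie left of 0.

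Licensing genes rose in part. Mcm5 and Mcm6 encode subunits of the MCM2-7 helicase, a ring of 6 related proteins. Mcm5 had a lowest, median and highest value of 4.49, 6.54 and 9.04 FPKM with Ang II, against 2.12, 3.52 and 4.35 FPKM with saline. The groups did not overlap, and the log2 fold change was 0.81 (SE 0.15, limma adjusted p = 0.000613). Mcm6 had 41.0, 50.6 and 59.5 FPKM with Ang II, against 18.4, 34.3 and 46.5 FPKM with saline. Here 7 of 8 Ang II libraries exceeded every saline library, with a log2 fold change of 0.72 (SE 0.16, limma adjusted p = 0.00282). Mcm2 averaged 10.1 ± 1.97 FPKM with Ang II and 5.95 ± 1.84 FPKM with saline (SD, n = 8 each), a log2 fold change of 0.71.

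The other ring subunits did not pass. Mcm3 averaged 8.16 ± 2.29 FPKM with Ang II and 5.73 ± 1.76 FPKM with saline, a log2 fold change of 0.45 (SE 0.19, limma adjusted p = 0.0763), and passed without Ang II 2 (0.56, limma adjusted p = 0.0213). Mcm4 ran from 5.46 to 13.7 FPKM (median 9.14) with Ang II and from 2.37 to 12.5 FPKM (median 9.63) with saline, with a log2 fold change of 0.23 (SE 0.25). Mcm7 ran from 15.8 to 24.9 FPKM (median 19.5) with Ang II and from 16.3 to 30.3 FPKM (median 18.7) with saline, with a log2 fold change of 0.06 (SE 0.13). For Mcm4 and Mcm7 the groups overlapped almost fully, and 12.6% of the exon bases of Mcm7 overlap other gene models. All 6 subunits of a ring that assembles in equal parts had positive fold changes, from 0.06 to 0.81 on the log2 scale, but that of Mcm4 was negative without Saline 7 and Saline 8, with sample weights and without Saline 2, Saline 7 and Saline 8 (-0.20 in that last case). Levels of the subunits per length differed widely, Mcm6 averaging 51.1 FPKM and Mcm5 6.75 FPKM with Ang II, 31.8 and 3.39 FPKM with saline, but these FPKM rest on a mean length over annotated transcripts, so the order between genes carries that choice.

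Cdt1 and Cdc6, which load the ring, both rose. Cdt1 averaged 2.90 ± 1.06 FPKM with Ang II and 1.71 ± 0.483 FPKM with saline, 0.50 higher on the log2 scale (limma adjusted p = 0.0199). Cdc6 averaged 1.01 ± 0.422 FPKM with Ang II and 0.564 ± 0.155 FPKM with saline, 0.35 higher on the log2 scale (limma adjusted p = 0.0437). The Cdc6 call was lost when any of Ang II 1, 3, 4, 5, 6 or 7 or Saline 1, 2, 3, 5, 6 or 7 was left out, with limma adjusted p from 0.05003 to 0.0863. Gmnn encodes geminin, which binds Cdt1 and blocks relicensing. Gmnn averaged 6.18 ± 1.92 FPKM with Ang II and 4.46 ± 0.925 FPKM with saline, a log2 fold change of 0.37 (SE 0.16) that did not pass (limma adjusted p = 0.0888) but did without Ang II 8 (0.44, limma adjusted p = 0.0496).

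The 2 origin recognition subunits did not pass either. Orc1 ran from 0.697 to 1.91 FPKM (median 1.31) with Ang II and from 0.992 to 2.00 FPKM (median 1.43) with saline, with a log2 fold change of -0.05 (SE 0.14). Orc6 ran from 11.1 to 14.0 FPKM (median 12.4) with Ang II and from 10.8 to 37.2 FPKM (median 15.6) with saline, with a log2 fold change of -0.46 (SE 0.18, limma adjusted p = 0.0603). The highest value of Orc6 was that of Saline 8. Orc6 passed as lower without Saline 3, Saline 5 or Saline 6, with log2 fold changes of -0.55, -0.51 and -0.51 (limma adjusted p = 0.0228, 0.0447 and 0.0480). Of the exon bases of Orc1 10.8% overlap another gene model.

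Among the factors that activate the helicase, Mcm10 rose and the others did not pass. Mcm10, which binds the loaded helicase when origins fire, had 0.959, 1.25 and 2.43 FPKM with Ang II as lowest, median and highest, against 0.129, 0.269 and 0.515 FPKM with saline. The groups did not overlap and the log2 fold change was 0.87 (SE 0.13, limma adjusted p = 0.000140). The saline values rest on 4 to 16 reads a library. Cdc45, the partner of the helicase in the moving fork, averaged 2.48 ± 0.833 FPKM with Ang II and 1.90 ± 0.394 FPKM with saline, a log2 fold change of 0.24 (SE 0.14).

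The 4 subunits of GINS, which rides with Cdc45, had log2 fold changes of 0.22 (SE 0.18) for Gins1, 0.43 (SE 0.16) for Gins2, -0.03 (SE 0.16) for Gins3 and -0.23 (SE 0.11) for Gins4. Gins2 came nearest to the threshold (limma adjusted p = 0.0516), with 2.30, 3.08 and 4.45 FPKM with Ang II against 1.04, 1.99 and 3.52 FPKM with saline. It passed as higher without Ang II 7, Saline 2, Saline 7 or Saline 8 (limma adjusted p = 0.0453, 0.0390, 0.0423 and 0.0168), but 67.3% of its exon bases are shared with Gse1 on the opposite strand, so its level is uncertain. Gins1 ran from 1.46 to 5.49 FPKM with Ang II and from 1.45 to 3.35 FPKM with saline. Gins3 ran from 2.12 to 3.96 FPKM with Ang II and from 1.90 to 5.25 FPKM with saline, and Gins4 from 9.52 to 14.6 FPKM with Ang II and from 11.4 to 20.2 FPKM with saline. In these 3 genes the groups overlapped.

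Primase and polymerase genes went apart. Pole, the catalytic subunit of the polymerase that copies the leading strand, had 1.04, 1.75 and 2.36 FPKM with Ang II, against 0.507, 0.754 and 1.13 FPKM with saline. It exceeded every saline library in 7 of 8 Ang II libraries, with a log2 fold change of 0.59 (SE 0.13, limma adjusted p = 0.00190). Prim1, the catalytic primase subunit, had 4.60, 5.76 and 10.4 FPKM with Ang II, against 7.55, 9.17 and 15.3 FPKM with saline. It was under all saline values in 7 of 8 Ang II libraries, with a log2 fold change of -0.57 (SE 0.15, limma adjusted p = 0.00885), a call lost after median ratio scaling as given above.

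Prim2, the large primase subunit, averaged 4.14 ± 0.504 FPKM with Ang II and 3.22 ± 0.786 FPKM with saline, a log2 fold change of 0.30 (SE 0.12, limma adjusted p = 0.0662). It passed without Ang II 2 or Saline 1 (limma adjusted p = 0.0451 and 0.0283). Pold1, the catalytic subunit of the lagging strand polymerase, averaged 12.5 ± 2.25 FPKM with Ang II and 18.4 ± 7.66 FPKM with saline, a log2 fold change of -0.46 (SE 0.18, limma adjusted p = 0.0639). Pold1 passed as lower without Ang II 2, Saline 4 or Saline 5 (limma adjusted p = 0.0499, 0.0342 and 0.0415), and the highest saline value, 34.7 FPKM, was that of Saline 8. Pola1 and Pola2, of the polymerase that extends primers, had log2 fold changes of 0.03 (SE 0.24) and -0.27 (SE 0.16). Pola1 ran from 1.56 to 4.57 FPKM with Ang II and from 0.943 to 4.77 FPKM with saline, and Pola2 from 3.34 to 5.39 FPKM with Ang II and from 3.96 to 11.3 FPKM with saline. The sign of Pola1 depended on libraries: without Saline 2, Saline 7 and Saline 8 it was called lower (-0.43, limma adjusted p = 0.0465).

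Of the genes that act around the fork, Rfc3, a subunit of the complex that loads the sliding clamp, rose. Rfc3 had 4.14, 6.18 and 7.84 FPKM with Ang II, against 3.31, 3.88 and 5.28 FPKM with saline, and 7 of 8 Ang II libraries exceeded every saline library (log2 fold change 0.50, SE 0.12, limma adjusted p = 0.00376). Rfc4 averaged 4.85 ± 1.42 FPKM with Ang II and 3.69 ± 1.62 FPKM with saline, and Rfc5 averaged 5.26 ± 0.896 and 5.15 ± 0.964 FPKM in the same order. Their log2 fold changes were 0.37 (SE 0.23) and 0.03 (SE 0.12), and 12.7% and 10.7% of their exon bases overlap other genes. Pcna, the clamp itself, had 43.0, 59.1 and 88.5 FPKM with Ang II, against 20.5, 51.4 and 66.1 FPKM with saline. The groups overlapped, and the log2 fold change of 0.44 (SE 0.21) did not pass (limma adjusted p = 0.115). The gene Pcna-ps2, a copy of Pcna, reached 0.403 FPKM at most.

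Rpa1 and Rpa2, of the complex that coats single-stranded DNA in replication and in repair, fell on the deposited scale. Rpa1 had 19.3, 21.9 and 28.8 FPKM with Ang II, against 23.1, 30.3 and 39.0 FPKM with saline, a log2 fold change of -0.41 (SE 0.11, limma adjusted p = 0.00987). Rpa2 had 12.5, 14.6 and 21.02 FPKM with Ang II, against 17.1, 19.1 and 29.8 FPKM with saline, a log2 fold change of -0.39 (SE 0.12, limma adjusted p = 0.0188). For Rpa1 5 and for Rpa2 7 of 8 Ang II values were under all saline values. Lig1, which seals Okazaki fragments, ran from 4.46 to 10.5 FPKM with Ang II and from 4.10 to 10.8 FPKM with saline, with a log2 fold change of 0.01 (SE 0.17).

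Fen1, the nuclease that trims Okazaki fragments, was below the filter of 0.5 FPKM and was not tested. Its Ang II libraries ran from 0 to 0.559 FPKM (median 0.236) and its saline libraries from 0 to 0.127 FPKM (median 0.0257), at most 5 reads in a saline library. Other gene models cover 84.2% of its exon bases, chiefly Gm10143 on the opposite strand. Strand use in counting is not given in the sources used here, so the level of Fen1 is uncertain.

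The members of nucleotide supply rose throughout, 4 of 4. Of 7 other replication genes of nucleotides 2 were higher and 2 lower. Among all genes tested 9.54% were higher and 24.9% lower. Rrm2, the small subunit of ribonucleotide reductase that is made in S phase, had 3.52, 7.48 and 14.1 FPKM with Ang II, against 0.532, 1.97 and 2.75 FPKM with saline. The groups did not overlap, and the log2 fold change was 1.47 (SE 0.23, limma adjusted p = 0.000143). Tk1, the thymidine kinase of dividing cells, had 13.4, 19.0 and 25.4 FPKM with Ang II, against 7.72, 11.9 and 14.8 FPKM with saline, with a log2 fold change of 0.70 (SE 0.15, limma adjusted p = 0.00183). Tyms, which makes thymidylate, averaged 5.24 ± 1.83 FPKM with Ang II and 3.20 ± 0.481 FPKM with saline, 0.53 higher on the log2 scale (limma adjusted p = 0.0151). Rrm1, the large reductase subunit, averaged 15.3 ± 3.56 FPKM with Ang II and 10.5 ± 3.03 FPKM with saline, 0.52 higher on the log2 scale (limma adjusted p = 0.0310). The Rrm1 call was lost when Ang II 1, 3, 5 or 8 or Saline 2, 7 or 8 was left out (limma adjusted p from 0.0522 to 0.0636). Without Saline 7 and Saline 8 together its log2 fold change was 0.34 (limma adjusted p = 0.103).

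The 3 chromatin genes among the members also all rose. Of 8 other replication genes of chromatin 1 was higher and 1 lower. Among all genes tested 9.54% were higher and 24.9% lower. Uhrf1, which reads half-methylated DNA behind the fork and recruits the maintenance methyltransferase, had 2.22, 3.56 and 6.78 FPKM with Ang II, against 0.387, 0.745 and 1.13 FPKM with saline. The groups did not overlap and the log2 fold change was 1.52 (SE 0.17, limma adjusted p = 6.38e-06). Chaf1a, of chromatin assembly factor 1, which places new histones, had 0.806, 1.11 and 1.93 FPKM with Ang II, against 0.0577, 0.503 and 0.711 FPKM with saline, a log2 fold change of 0.62 (SE 0.13, limma adjusted p = 0.00171). Its level is uncertain, since 52.5% of its exon bases overlap Ubxn6 on the opposite strand. Its partner Chaf1b averaged 3.00 ± 0.867 FPKM with Ang II and 1.52 ± 0.478 FPKM with saline, a log2 fold change of 0.66.

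Fork protection and checkpoint genes gave the largest single change. Clspn encodes claspin, the adaptor through which ATR activates the kinase Chk1 at stalled forks. Clspn had 1.83, 3.08 and 5.19 FPKM with Ang II, against 0.112, 0.360 and 0.701 FPKM with saline, and its lowest Ang II value was above its highest saline value. Its log2 fold change was 1.58 (SE 0.15, limma adjusted p = 7.21e-07), or 2.98-fold on the log2(FPKM + 1) scale, while the ratio of the mean FPKM was 8.69. Chek1, the gene of Chk1, averaged 2.31 ± 0.730 FPKM with Ang II and 0.690 ± 0.243 FPKM with saline, a log2 fold change of 0.96. Brca1, which protects stalled forks and repairs breaks, had 0.782, 1.53 and 2.17 FPKM with Ang II, against 0.135, 0.346 and 0.599 FPKM with saline, a log2 fold change of 0.89 (SE 0.12, limma adjusted p = 5.07e-05). Dtl, the adaptor that has Cdt1 degraded in S phase, averaged 1.01 ± 0.514 FPKM with Ang II and 0.142 ± 0.114 FPKM with saline, a log2 fold change of 0.79. Dtl held 0 to 23 reads in the saline libraries. Tipin, of the complex that steadies the fork, ran from 14.4 to 22.2 FPKM with Ang II and from 13.9 to 23.3 FPKM with saline, with a log2 fold change of -0.06 (SE 0.11).

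**Figure D3:**
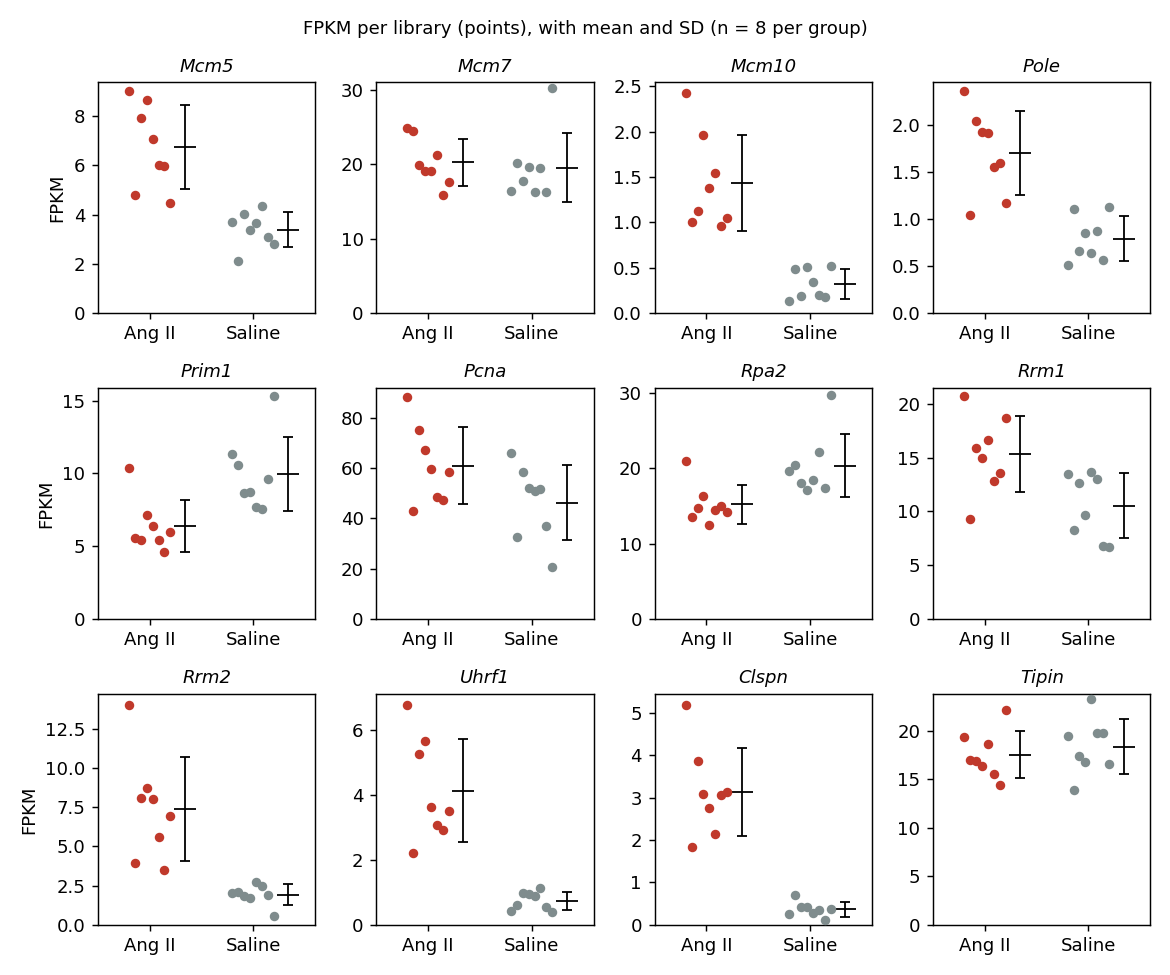
FPKM (y axes, from 0) of 12 members in each of the 8 Ang II libraries (red, left) and the 8 saline libraries (grey, right), with mean and SD beside the points. Clspn, Uhrf1, Rrm2, Mcm10 and Mcm5 show no overlap between groups, while Mcm7, Tipin and Pcna overlap.

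Partners in 1 complex or 1 step can be set side by side within a library, where scaling between libraries drops out. The 8 pairs below were picked by function with the fold changes above known, so their log2 ratios of FPKM are a description. A permutation test of each ratio was run, but after such a choice its p-values are no support and are not given. The ratio of Rrm2 to Rrm1 averaged -1.15 ± 0.424 with Ang II and -2.53 ± 0.565 with saline (SD, n = 8 each, log2). The ratio of Prim2 to Prim1 averaged -0.59 ± 0.335 with Ang II and -1.63 ± 0.595 with saline. The ratio of Pole to Pold1 averaged -2.91 ± 0.485 with Ang II and -4.52 ± 0.496 with saline. For each of these ratios 7 of 8 Ang II libraries were above every saline library.

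The ratio of Clspn to Tipin averaged -2.54 ± 0.443 with Ang II and -5.81 ± 0.930 with saline, which restates the rise of Clspn beside a gene whose fold change was near 0. The other 4 ratios differed less. The difference was 0.30 on the log2 scale for Cdt1 to Gmnn, 0.74 for Chaf1a to Chaf1b, 0.42 for Pola1 to Pola2 and -0.01 for Rpa1 to Rpa2. In Pola1 to Pola2 the 8 saline libraries alone spanned -3.58 to 0.26, and without Saline 2, Saline 7 and Saline 8 the difference was -0.51.

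Calls were found at every level of expression. Of the 11 members with a mean of 10 FPKM or above over the 16 libraries 3 were higher, Mcm6, Tk1 and Rrm1, and 2 were lower (9.08% and 31.4% of all genes of that level). Pcna, Mcm7, Tipin, Gins4, Pold1 and Orc6, which are also in this range, did not pass. Of the 8 from 5 to 10 FPKM 2 were higher and 1 lower (8.66% and 25.1% of all). Of the 14 from 2 to 5 FPKM 6 were higher and 0 lower (11% and 19.5% of all). Of the 9 members from 0.5 to 2 FPKM 8 were higher and 0 lower (10.2% and 13.2% of all). But the level is the mean over both groups, and Mcm10, Chaf1a, Brca1, Dtl and Clspn are in this range only through their Ang II values. This count is therefore no sign that low genes rose more often.

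The height of the rise differed between Ang II libraries. Averaged over the 42 tested members, log2(FPKM + 1) stood 0.17 to 0.80 above the saline mean in the Ang II libraries and between -0.07 and 0.10 of it in the saline libraries. Ang II 1 was the highest of its group in 33 of the 42 members. Ang II 2, with 14, and Ang II 7, with 13, were most often the lowest. Without Ang II 1, 16 members were higher and 3 lower, and the median log2 fold change was 0.30. Saline 8 was the highest of its group in 13 members and the lowest in 15. Saline 2, Saline 7 and Saline 8 stood apart from the rest on the first principal component of all genes. Ang II 2, at 3.06, lay there between Saline 4 (-1.39) and Saline 6 (8.07). The other Ang II libraries ran from -37.1 to -28.34. Without Ang II 2, 21 members were higher and 4 lower (median 0.43). Without Saline 7 and Saline 8, 18 members were higher and 3 lower (median 0.31), and without Saline 2 as well 17 and 5 (median 0.24).

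**Figure D4:**
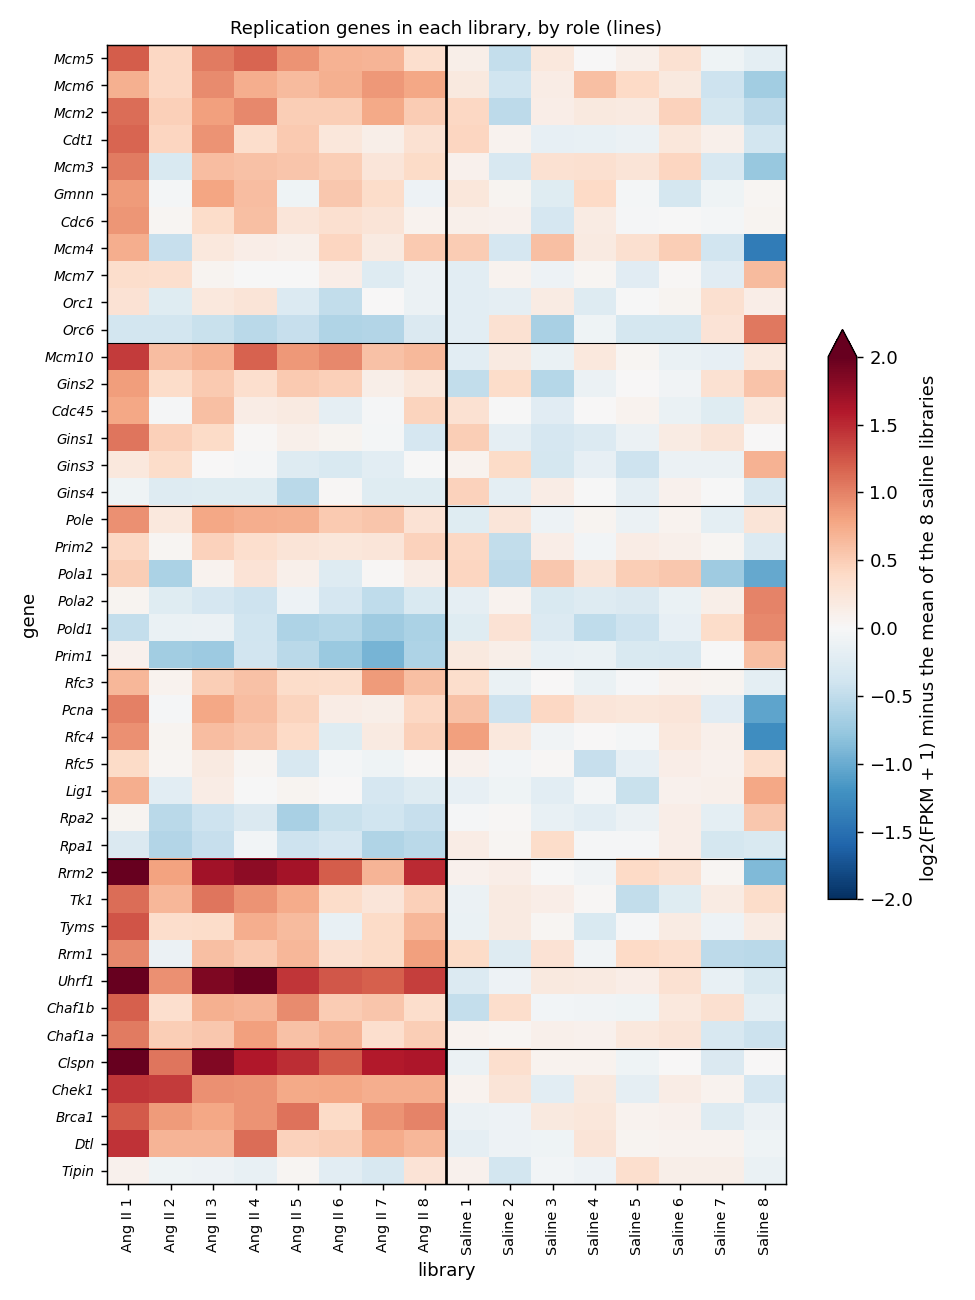
Colour shows log2(FPKM + 1) minus the saline mean for each tested member (rows, by role) in each library (columns, Ang II left of the line and saline right). Clspn, Uhrf1 and Rrm2 are red in all Ang II libraries, Ang II 1 is the reddest column, and Saline 8 holds both the bluest cells (Mcm4, Rfc4, Pcna) and some of the reddest saline cells (Orc6, Pola2, Pold1).

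Some markers of myeloid cells were higher with Ang II. Of 10 macrophage and monocyte markers 4 passed as higher and none as lower, where 9.54% of all genes were higher and 24.9% lower. Of these 4, Itgam and Ccr2 had saline means of 0.358 and 0.272 FPKM and passed the filter through their Ang II level. The call of Itgam was near the threshold (limma adjusted p = 0.0483), and 68.7% of its exon bases overlap Gm49368 on the same strand. The summed level of the 10 markers ran from 60.3 to 685 FPKM with Ang II and from 20.2 to 638 FPKM with saline. Ang II 1 had the highest sum of all libraries, and also the highest sum of the 5 neutrophil markers, at 129 FPKM (2.88 to 129 FPKM with Ang II and 0 to 10.6 FPKM with saline). Of the 3 neutrophil markers tested, 1 passed as higher. The macrophage sums of the groups overlapped: Ang II 4, 5, 7 and 8, with 165.6, 60.3, 91.5 and 89.96 FPKM, lay below Saline 1 and Saline 2 (638 and 268 FPKM). Of the 7 lymphocyte markers 3 could be tested and none passed, and the sum of all 7 stayed between 0.966 and 3.78 FPKM with Ang II and between 0.798 and 34.2 FPKM with saline. No marker of the lists was at 0 in every library, and Ly6g (neutrophil) and Lep (adipocyte) were under 0.1 FPKM on average. Of 6 adipocyte markers 1 passed as lower, of 6 endothelial markers 1 as lower, and of the fibroblast and red cell markers none passed. The part of these cells in the rise was not tested.

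Replication genes outside the named set were called in both directions. Of 46 tested genes in 4 further lists (licensing and firing, fork and polymerase, nucleotides, chromatin), 8 were higher and 10 lower, where 9.54% of all genes were higher and 24.9% lower, and their median log2 fold change was -0.01. After median ratio scaling 12 were higher and 5 lower, where 14.9% and 14.1% of all genes were. The number lower is near the share over all genes on either scale. Dbf4, the activator of the kinase that fires origins, rose by 1.06 on the log2 scale (3.00 FPKM with Ang II and 0.902 FPKM with saline on average). Asf1b, a histone chaperone of dividing cells, rose by 0.95, and Topbp1, which helps to build the fork and activates ATR, by 0.46. With a saline mean of 0.3225 FPKM, Asf1b passed the filter through its Ang II level. Pold2, a small subunit of polymerase delta, fell by 0.85 (19.6 FPKM with Ang II and 36.8 FPKM with saline). Tk2, the mitochondrial thymidine kinase, fell by 0.80 and Ssrp1, of the histone chaperone FACT, by 0.37. In Pold2, Tk2 and Ssrp1 the highest Ang II value was under the lowest saline value. This held for 3 of the 46 tested genes, near the 5.62% of all genes.

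Of 18 genes of the ATR pathway and fork repair 14 could be tested. Of these 3 rose and 3 fell, where 9.54% of all genes were higher and 24.9% lower, and the number that fell is near that share. Bard1, Exo1, Fanci and Rmi2 were below the filter of 0.5 FPKM and were not tested. Their mean levels were all higher with Ang II than with saline, so the tested genes do not stand for the whole list. Fancd2, of the Fanconi anaemia pathway, and Blm, a helicase gene, rose, with log2 fold changes of 0.53 and 0.48. Atrip, the partner of ATR, fell by 0.64, and part of its exon bases overlap Trex1. Rad9a and Rad1, of the checkpoint clamp, fell by 0.64 and 0.35. After median ratio scaling 5 rose and 1 fell, where 14.9% of all genes were higher and 14.1% lower.

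The genes that replicate mitochondrial DNA formed the other extreme: all 8 were lower, where 24.9% of all genes were. Their log2 fold changes ran from -0.71 (Polg2) to -0.30 (Polg), with a median of -0.50. Polg2, the accessory subunit of the mitochondrial polymerase, averaged 3.16 FPKM with Ang II and 5.75 FPKM with saline. Twnk, the mitochondrial helicase, averaged 2.29 FPKM with Ang II and 3.79 FPKM with saline. Its highest Ang II value was under its lowest saline value, as in 5.62% of all genes, although 12.6% of its exon bases overlap another gene. After median ratio scaling 4 of the 8 passed, all lower, where 14.1% of all genes were lower. The median of the 8 was then -0.39.

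The lists for the E2F switch and for mitosis had larger median fold changes than the replication genes. Of 9 tested genes of the E2F switch 8 were higher, where 9.54% of all genes were, and the median log2 fold change was 0.96. Among them E2f2 and E2f7, with saline means of 0.441 and 0.2365 FPKM, passed the filter through their Ang II level. Log2 fold changes in this list ran from 0.205 (Cdk2, which did not pass) to 2.33 (Cdk1). Cdk1 averaged 10.6 FPKM with Ang II and 1.19 FPKM with saline, and Ccna2 (cyclin A2) 8.501 FPKM with Ang II and 1.265 FPKM with saline, with 12.5% of the exon bases of Ccna2 shared with Exosc9. Of 8 mitosis markers all 8 were higher, where 9.54% of all genes were. Their median was 2.13, where the 42 replication genes had 0.40. Bub1 and Ccnb1, with saline means of 0.2301 and 0.4274 FPKM, likewise passed the filter through their Ang II level. Top2a (topoisomerase II alpha) averaged 19.4 FPKM with Ang II and 1.88 FPKM with saline, and Mki67 6.49 FPKM with Ang II and 0.580 FPKM with saline. The difference between these lists was not tested.

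**Figure D5:**
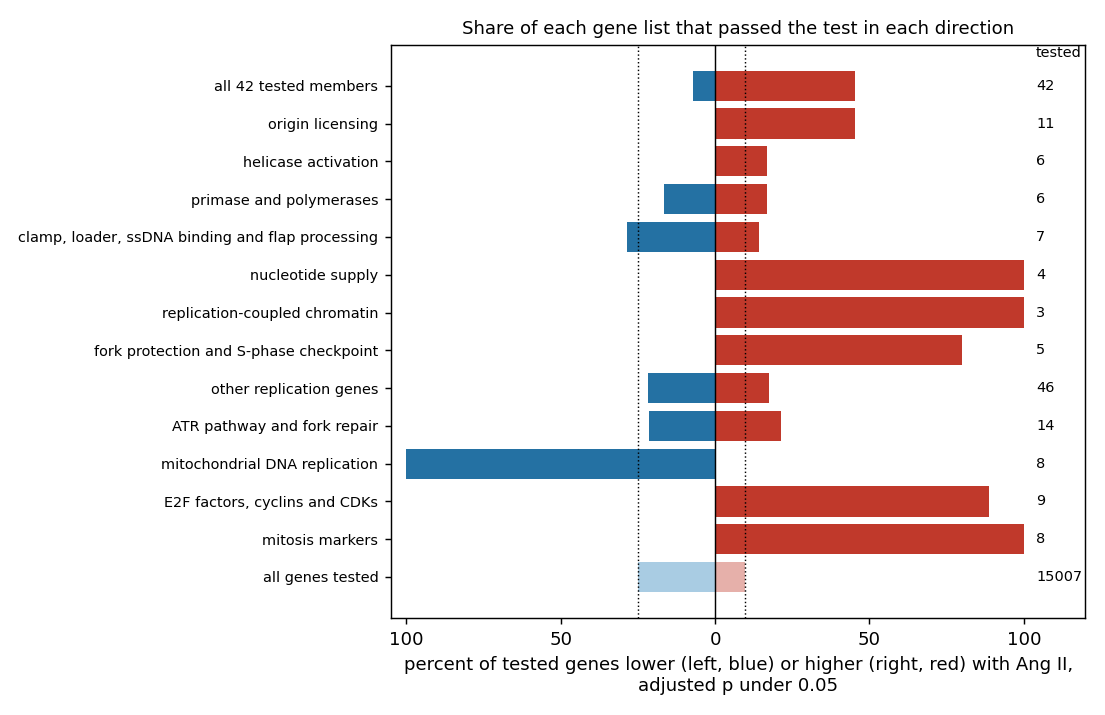
Percent of tested genes higher (red, right) or lower (blue, left) with Ang II for the replication genes, their role groups and 5 further lists, with the number tested at the right. Dotted lines mark 9.54% higher and 24.9% lower, the shares of all 15007 genes tested; nucleotide supply, chromatin and mitosis bars reach 100% higher and the mitochondrial replication bar 100% lower.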

How the data were processed

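Per the labels' protocols, total RNA in Trizol went into SMARTer libraries of mRNA. The authors deposited FPKM, which scale fragments by transcript length and library depth, for 54532 genes on build GRCm38, also named mm10 in the submitters' processing notes. Aligner, counter and strand setting: not given in the sources used here. Groups came from the sample titles and columns were matched by library name.

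Values of log2(FPKM + 1) were tested by limma (version 3.58.1, trend on mean level, R 4.3.3). This scale understates changes of low genes. With GENCODE M21 mean transcript lengths, 95.8% to 96.3% of values above 0 were whole reads within 0.02 of a read, and limma voom on those reads was an alternative. No 2 libraries of a group were copies (lowest chi-square per degree of freedom 20 over 56 pairs). Deviations of same-numbered samples from their group means correlated from -0.246 to 0.385, and whether the numbers pair the samples was not tested. Tests were checked on simulated data. Python 3.11.15 did the rest.

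The members, lists and tests were chosen with earlier results of these data known. Every member is accounted for, with full values for the 2 smallest adjusted p per role and for members that fell or did not pass, and from other lists at most 3 risen and 3 fallen genes of at least 1 FPKM. The values of 1 gene of the ATR and fork repair list are not reported here.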

Additional observations from a re-analysis of the deposited data

Results flagged for a closer look

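A library far from the other 7 of its group was found 12 times among 88 groups (43 members and their mean, in each treatment), where chance flags about 1 in 20. Saline 8 stood out 6 times: Orc6 (37.2 FPKM, next highest 21.7), Mcm7 (30.3, next 20.2), Pola2 (11.3, next 5.68), Pold1 (34.7, next 22.7), Rpa2 (29.8, next 22.1) and Lig1 (10.8, next 6.40). Ang II 1 stood out 4 times: Gins1 (5.49 FPKM, next highest 3.32), Prim1 (10.4, next 7.16), Rpa2 (21.02, next 16.3) and Lig1 (10.5, next 6.67). The others were Rfc3 in Saline 1 (5.28 FPKM, next highest 4.18) and Cdc6 in Saline 3 (0.235 FPKM, next lowest 0.511).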

How the results depend on the processing

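Over 26 alternatives, 16 of the 19 risen members were called wherever they were tested; Cdc6, Cdt1 and Rrm1 were not. The number of members called higher ran from 16 to 21 when 1 library was left out, and the number lower from 3 to 5 (5 without Saline 2, Saline 7 and Saline 8, chosen after seeing the data, where Pola1 turned to -0.43). With a filter of mean 1 FPKM only 14 were higher, since Mcm10, Chaf1a, Brca1, Dtl and Cdc6 were then not tested. With no filter 17 were higher. After median ratio scaling or quantile normalization 0 were called lower. The median log2 fold change of the members was 0.50 with a pseudocount of 0.1 or voom, 0.51 after median ratio scaling, 0.47 after quantile normalization, 0.31 without Saline 7 and Saline 8, 0.28 with sample weights, 0.24 without Saline 2, Saline 7 and Saline 8, and 0.30 to 0.44 without 1 library. Of the other replication genes 5 were lower after either rescaling and 18 with sample weights (8 to 11 without 1 library). Of the ATR list 6 were higher with no filter, 5 after median ratio scaling, with sample weights or without the 3 saline libraries, 3 to 5 without 1 library, and 1 was lower after either rescaling. Over all genes 2238 were higher and 2114 lower after median ratio scaling, and 2270 and 2374 after quantile normalization. With voom on recovered reads 1331 of 14273 genes were higher and 3542 lower. With the replicate number as a block 20 members were higher and 3 lower. Of 8 Ang II libraries 3 correlated best with the saline library of their own number, and pairing by number was not tested. The Pola1 to Pola2 ratio turned to -0.51 without the 3 saline libraries. The cause of these shifts was not tested. Low members rest on few reads, as for Dtl and Mcm10.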
